A study of Mus musculus with 6 samples.

Results

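The genes described here encode glutathione transferases, carboxylesterases, aldehyde dehydrogenases and UDP-glycosyltransferases. They were chosen by symbol: Gst followed by a class letter (a, k, m, o, p, t or z) and a digit, or Ces, Aldh or Ugt followed by a digit, with Aldh18a1 left out. Of 69 such symbols among 26814 in the count table, 46 are the members, since 3 or more libraries held them at 1 CPM or above (CPM is a read count scaled to the size of its library). They comprised 18 Gst, 5 Ces, 18 Aldh and 5 Ugt genes, among 15009 genes that reached that level. The samples were whole top lip from adult female mice of the C57BL/6J background, 3 wild type (WT) and 3 carrying the Gtf2ird1tm1Hrd allele (Gtf2ird1 knockout, KO), with 1 library per mouse. The allele is a germline mutation, so no cell type of the lip was targeted, and WT and KO animals shared the strain background and sex. The study asked which transcripts change in lip tissue when Gtf2ird1, a transcription factor gene, is inactivated.

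Glutathione transferases join glutathione to electrophilic molecules, including aldehydes and peroxides formed from oxidised lipids. Carboxylesterases cleave ester bonds in drugs and in stored lipids, and aldehyde dehydrogenases oxidise aldehydes to acids, among them retinal to retinoic acid and fatty aldehydes to fatty acids. UDP-glycosyltransferases add a sugar to lipophilic molecules. In skin these enzymes are found in keratinocytes, sebaceous glands and fat, and many alpha class glutathione transferase genes carry antioxidant response elements, the sites read by the transcription factor NRF2 (gene Nfe2l2).

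The libraries held 20164081 to 29491767 counted reads, so that 3 counts correspond to 0.0986 to 0.154 CPM. Gtf2ird1 itself was read at 78.2, 70.2 and 70.7 CPM in the WT libraries 1 to 3 and at 166, 162 and 144 CPM in the KO libraries 1 to 3. It was thus higher, not lower, in every library labelled KO (log2 fold change 1.11, SE 0.13, adjusted p = 0.0018 in edgeR's quasi-likelihood test). The methods describe genotyping of the mice with tail biopsies, whereas gene counts do not show which exons were read, and the text below writes "labelled KO" for that reason. A multidimensional scaling used, for each pair of libraries, the 500 genes that differed most between them. On its first axis the WT libraries lay at -1.66, -1.54 and -1.60, KO1 and KO2 at 1.84 and 1.82, and KO3 at 1.14, which set KO3 apart from the other 2 libraries labelled KO. Among the members, KO3 was the library labelled KO nearest to the WT mean in 26 of 46 genes (56.5%), beside 57.5% of all tested genes.

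Whole lip contains many cell types, and fewer cells of a type cannot be told apart from less RNA per cell. Basal keratinocyte markers (8 genes) summed to 11264 to 12147 CPM in WT and 11530 to 12805 CPM in KO-labelled libraries, most of it from Krt5 and Krt14. Dst was called higher (log2 fold change 1.37), Itga6 and Trp63 lay higher and Krt15 and Col17a1 lower without overlap or a call, and the other 3 overlapped. Suprabasal keratinocyte markers (10 genes) summed to 20557 to 25261 CPM in WT and to 31676 to 48469 CPM in KO-labelled libraries, most of it from Krt1 and Krt10. Of these genes 5 lay higher without overlap, of which 2 were called (Ivl and Casp14), and Lor had a negative log2 fold change (-0.32). The sums of the skeletal muscle list (12 genes) were 15115 to 20042 CPM against 7389 to 11977 CPM, and those of the adipocyte list (10 genes) 387 to 505 CPM against 257 to 331 CPM. Of the tested wound keratinocyte genes 2 of 8 were called higher, and of the hair follicle genes 3 of 13 were called lower, where 4.38% of all tested genes were called higher and 2.09% lower. The wound list summed to 4005 to 5813 CPM in WT and 6110 to 9678 CPM in KO-labelled libraries, with 7 of 8 log2 fold changes positive. The hair follicle list summed to 9086 to 11594 CPM against 5762 to 7694.5 CPM. All 13 of its tested genes had negative log2 fold changes, and 11 lay lower without overlap. The sebaceous gland list (10 genes) summed to 4185 to 5393 CPM in WT and 2807 to 4733 CPM in KO-labelled libraries, and of its 9 tested genes 8 had negative log2 fold changes, 2 were called lower (Awat1 and Plin5) and 1 higher (Scd3). The dermal fibroblast list had 8 of 9 negative and 0 called by edgeR's quasi-likelihood test, with 2 at an unadjusted p under 0.05. Aqp5, a gland marker, had a log2 fold change of 2.69 and was called higher, and it was the only gene of its list that was tested. Bpifa1 and Bpifb1 stood at 3 counts or fewer in each library, Scgb1a1 at 0.723 to 1.09 CPM in WT and 0 to 0.409 CPM in KO-labelled libraries, and Muc5b at 0.468 to 1.03 and 0.23 to 0.461 CPM. The hepatocyte list summed to 4.94 to 8.97 CPM in all libraries, with Alb and Serpina1a at 3 counts or fewer in each. Most of that sum came from Cps1 (3.29 to 7.65 CPM), the only gene of the list that was tested. The part of these differences in the results below was not tested, except where a value is given.

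Several members that the results turn on lie beside related genes, and shared sequence limits what their counts can separate. All coordinates are on GRCm38. Gsta4, Gsta1 and Gsta2 lie on chromosome 9, at chr9:78182774-78209349 (plus strand), chr9:78230656-78242684 (plus strand) and chr9:78331018-78355788 (minus strand). Aldh1a2, the only Aldh member on that chromosome, lies apart from them at chr9:71215789-71296243 (plus strand). Ces2f lies at chr8:104947356-104960047 and its neighbour Ces2g at chr8:104961718-104969537, both on the plus strand. Of the exonic stretches of 100 bases in Gsta1, 81.8% also occur in another annotated gene (Gm3776, Gsta2 or Gm10639), and of those in Gsta2 24.8% do. None of those in Gsta4, Ces2f, Ces2g, Ces1d or Aldh1a2 do. The coding sequences of Gsta1 and Gsta2 were 98.0% identical over 666 bases, with 13 differences and an identical run of 196 bases. The stretch below shows this for coding bases 415 to 514, in exon 6 of each transcript (chr9:78241527-78241626, plus strand, and chr9:78332119-78332218, minus strand), with the 5 bases that differ in capitals.
Gsta1-201: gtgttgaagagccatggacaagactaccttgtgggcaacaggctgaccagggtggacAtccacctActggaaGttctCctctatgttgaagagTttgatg
Gsta2-201: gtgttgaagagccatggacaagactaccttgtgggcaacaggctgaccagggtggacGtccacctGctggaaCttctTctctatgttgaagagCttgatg

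Upstream of the transcription start the same 2 genes differ more. The next pair gives bases -250 to -21 from the RefSeq start on GRCm38.p6 (chr9:78230419-78230648, plus strand, and chr9:78347166-78347395, minus strand), shown because Gsta1 was called higher and Gsta2, its near copy, was not. Capitals mark bases that differ or have no partner in the alignment. Identity was 69.3% over 241 aligned columns and 86.7% over the last 120 bases of the Gsta1 stretch.
Gsta1: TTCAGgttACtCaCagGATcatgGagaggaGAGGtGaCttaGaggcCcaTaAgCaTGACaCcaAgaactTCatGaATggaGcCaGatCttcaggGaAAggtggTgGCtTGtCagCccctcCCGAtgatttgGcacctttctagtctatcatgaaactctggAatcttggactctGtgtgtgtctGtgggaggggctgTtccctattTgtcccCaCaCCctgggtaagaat
Gsta2: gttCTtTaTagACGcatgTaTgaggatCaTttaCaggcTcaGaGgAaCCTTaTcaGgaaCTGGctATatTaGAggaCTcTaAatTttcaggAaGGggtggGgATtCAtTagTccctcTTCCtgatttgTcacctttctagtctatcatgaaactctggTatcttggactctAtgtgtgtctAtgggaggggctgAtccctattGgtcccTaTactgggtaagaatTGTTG

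The same window is shown for the members called lower, Aldh1a2 (chr9:71215539-71215768, plus strand) and Ces2f (chr8:104947106-104947335, plus strand), also from RefSeq. Here capitals mark matches to the antioxidant response element core TGACNNNGC or to the xenobiotic response element core GCGTG, each searched on both strands. The last bases of the former can overlap the first of the latter, which they did not do here. The Aldh1a2 stretch holds GCGTG at -128 and TGACNNNGC at -112, and the Ces2f stretch holds neither.
Aldh1a2: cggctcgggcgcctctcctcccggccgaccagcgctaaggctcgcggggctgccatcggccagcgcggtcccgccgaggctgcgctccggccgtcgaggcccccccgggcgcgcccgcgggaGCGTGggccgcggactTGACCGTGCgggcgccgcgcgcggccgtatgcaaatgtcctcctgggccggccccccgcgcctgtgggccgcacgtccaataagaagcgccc
Ces2f: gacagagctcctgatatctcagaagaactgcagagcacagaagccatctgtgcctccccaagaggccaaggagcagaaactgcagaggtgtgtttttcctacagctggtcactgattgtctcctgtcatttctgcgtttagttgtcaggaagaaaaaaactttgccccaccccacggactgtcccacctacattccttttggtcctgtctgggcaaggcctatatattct

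In the full windows of 300 bases (250 before to 50 after the start), 36 of 46 members had a RefSeq entry, and the other members, Gsta4 among them, were not searched. TGACNNNGC occurred in 5 of 36 (13.9%: Aldh1a2, Aldh9a1, Gsta3, Gstm5 and Gstm7), beside 14.0% of all 27025 entries and 16.9% of tested genes. GCGTG occurred in 11 of 36 (30.6%), Gsta1 and Gsta2 among them, beside 35.2% of all entries and 53.5% of tested genes. A match of letters is a description of the window, and a missing match says only that the letters are not in it.

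Most of the 46 genes were read well above the limit: 45 reached 1 CPM in all 6 libraries, and none passed through one genotype alone. The exception, Ugt1a6b, lay between 0.658 and 1.54 CPM. Just outside the limit were Ces2e, with at most 1.45 CPM in a library, Ces1b with at most 1.23 CPM, and Gstm3 and Ces1g with at most 0.972 CPM each. The other 19 symbols under the limit included Aldh8a1, Gsto2, Ces1a and the Ugt2b genes, all at or below 0.944 CPM in every library. Per kilobase of exon, the level at which genes can be compared, Aldh3a1 was first with a mean of 163 CPM per kb over the 6 libraries and Gstm1 second with 137. Aldh3a1 is the aldehyde dehydrogenase best known as a major soluble protein of the cornea, and Gstm1 is the main mu class transferase. Aldh3b2 (74.0 CPM per kb), Gsto1 (66.9), Aldh2 (37.4), Gstp1 (35.7) and Gstm2 (34.6) followed, and Ugt8a was last at 0.479. Neighbours in this order such as Aldh2, Gstp1 and Gstm2 overlapped between libraries.

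**Figure D1:**
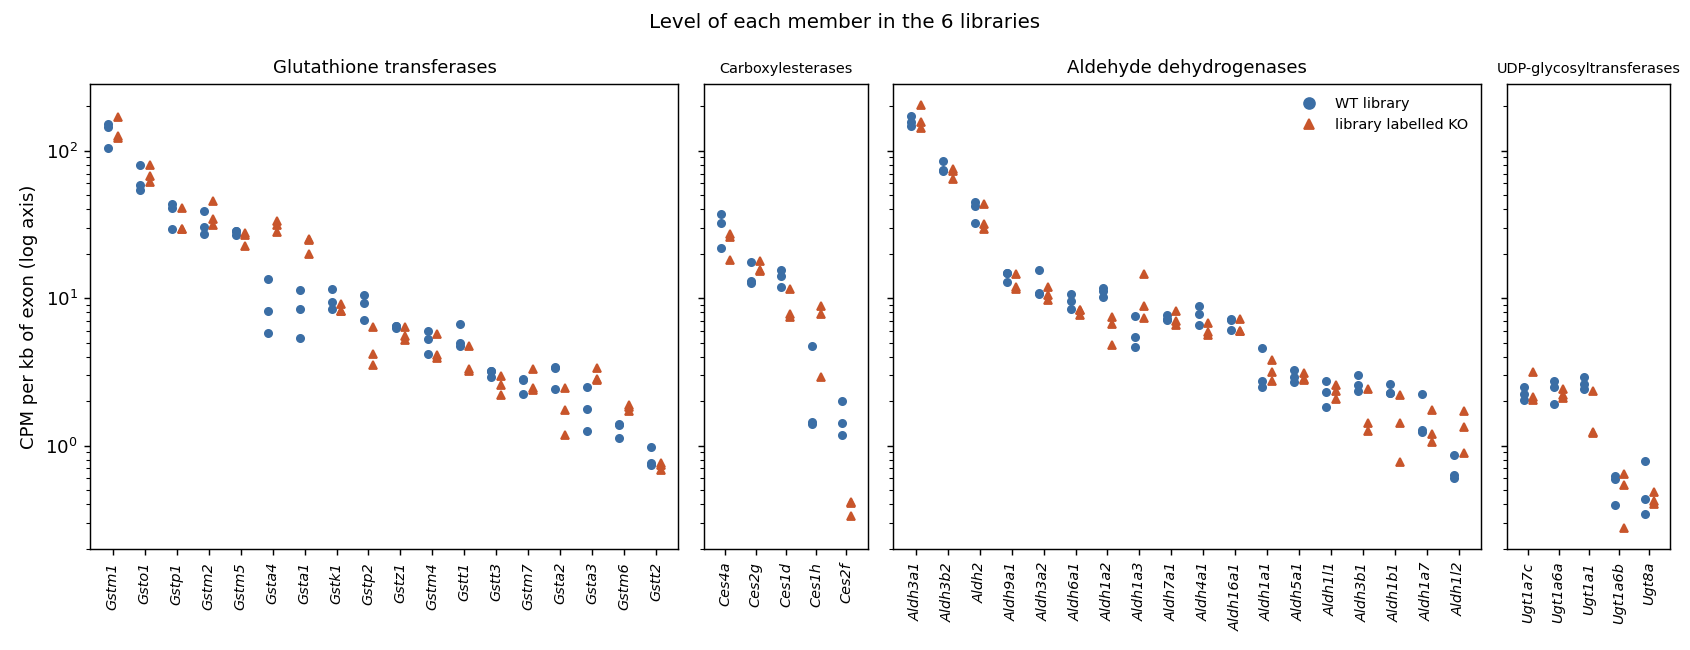
CPM per kb of exon (log axis) of each member in each of the 6 libraries, by family and in order of the mean level; circles are WT libraries and triangles libraries labelled KO. Aldh3a1 and Gstm1 stand highest, at means of 163 and 137 CPM per kb, and the groups part visibly at Gsta4, Gsta1 and Ces2f.

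Of the 46 members, 2 were called higher in KO-labelled libraries (Gsta4 and Gsta1) and 2 lower (Ces2f and Aldh1a2), with p adjusted over all 15009 genes and a threshold of 0.05. That is 4.35% in each direction, beside 4.38% of all tested genes called higher, 2.09% called lower and 6.47% in either direction, so the share of members called was near the background. The groups did not overlap in 5 members that lay higher and 8 that lay lower (10.9% and 17.4%), beside 13.5% and 18.1% of all genes. At an unadjusted p under 0.05 there were 7 members in each direction, beside 13.5% of all genes higher and 16% lower. The log2 fold change was positive in 15 members and negative in 31, with a median of -0.17 beside -0.02 over all tested genes. By family the median was -0.14 in Gst, -0.36 in Ces, -0.15 in Aldh and -0.18 in Ugt.

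**Figure D2:**
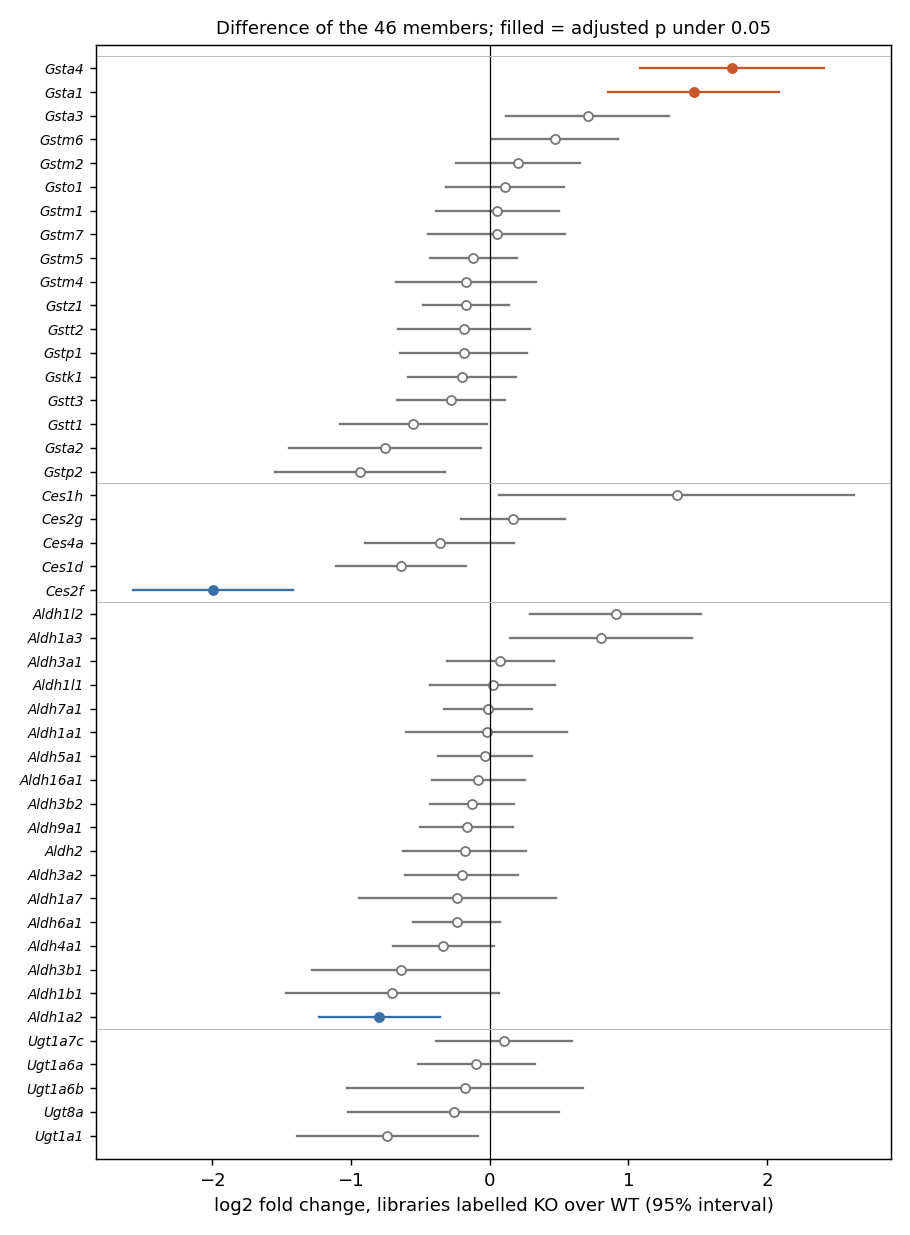
Log2 fold change of each of the 46 members, libraries labelled KO over WT, with the 95% interval of edgeR's quasi-likelihood fit; filled points are called at an adjusted p under 0.05 over all tested genes. Gsta4 (1.75) and Gsta1 (1.47) lie to the right, Ces2f (-1.99) and Aldh1a2 (-0.80) to the left, and the intervals of most other members include 0.

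The alpha class held both increases. Gsta4, which has high activity toward hydroxynonenal, an aldehyde from oxidised lipids, was read at 17.2, 10.3 and 7.38 CPM in WT and at 42.1, 39.7 and 35.8 CPM in KO-labelled libraries. The lowest of the latter was over the highest WT value, and the spread was wider in WT (11.6 ± 5.04 CPM, SD, n = 3) than in KO-labelled libraries (39.2 ± 3.19 CPM, SD, n = 3). Its level rose 3.36-fold (log2 fold change 1.75, SE 0.29, 95% interval 1.09 to 2.41, adjusted p = 0.0121 in edgeR's quasi-likelihood test). Gsta1, an inducible alpha class enzyme, gave 10.9, 8.08 and 5.13 CPM in WT and 24.1, 23.6 and 19.1 CPM in KO-labelled libraries. The groups did not overlap, and WT3 was the lowest library for both genes. The increase was 2.77-fold (log2 fold change 1.47, SE 0.27, 95% interval 0.86 to 2.08, adjusted p = 0.0184 in edgeR's quasi-likelihood test).

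Both calls were lost in some fits with a library left out. Without WT2 or without KO2 neither Gsta4 nor Gsta1 passed the threshold, and without KO1 Gsta1 did not. The log2 fold changes of Gsta4 and Gsta1 were then 1.73 and 1.53 without WT2 and 1.80 and 1.48 without KO2. Calls over all tested genes fell as well, from 657 higher and 314 lower to 476 and 62 without WT2. They numbered 208 and 18 without KO2. Over the 6 fits with a library left out the log2 fold change ran from 1.504 to 2.14 for Gsta4, with adjusted p up to 0.0583 in edgeR's quasi-likelihood test, and from 1.23 to 1.75 for Gsta1, with adjusted p up to 0.0889. Both genes were called under all 8 other analyses of the 6 libraries.

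The other alpha class members were not called. Gsta3, known for its activity toward an epoxide of aflatoxin, had 5.44, 10.9 and 7.65 CPM in WT and 14.7, 12.2 and 12.3 CPM in KO-labelled libraries. The groups did not overlap, but the difference did not pass (log2 fold change 0.71, SE 0.26, adjusted p = 0.118 in edgeR's quasi-likelihood test). Gsta2, whose coding sequence is nearly that of Gsta1, had 4.03, 3.95 and 2.83 CPM in WT and 1.38, 2.89 and 2.06 CPM in KO-labelled libraries. WT3 and KO2 overlapped, and the log2 fold change was -0.75 (SE 0.30, 95% interval -1.44 to -0.06, adjusted p = 0.143), while the interval of Gsta1 lay wholly over 0. The counting mode is not given in the sources used here, and how reads that fit both Gsta1 and Gsta2 were assigned was not tested. Gm10639, which shares stretches of 100 bases with both and was chosen after its values were seen, had 27, 19 and 15 counts in WT and 83, 112 and 77 in KO-labelled libraries. It reached 1 CPM in the KO-labelled libraries alone and so entered the test only through them, for which reason no test of it is given.

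Summed per kilobase, the alpha class genes came to 29.6, 22.5 and 15.4 CPM per kb in WT and to 63.0, 61.3 and 52.8 in KO-labelled libraries. Their share of the summed level of all 18 Gst members was 7.29%, 7.14% and 4.19% in WT and 16.2%, 16.6% and 12.02% in KO-labelled libraries. The mu class, the most abundant, held 53.6% to 60.2% of the sum in WT and 49.5% to 56.6% in KO-labelled libraries, and these ranges overlapped. The pi class share was 11.6% to 14.4% against 8.52% to 10.8%, but its denominator includes the alpha class. The pi class sums themselves overlapped, at 51.5, 36.6 and 52.9 CPM per kb in WT and 33.1, 33.8 and 47.5 CPM per kb in KO-labelled libraries.

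No other Gst member was called. Gstm1 had 223, 155 and 214 CPM in WT and 180, 186 and 250 CPM in KO-labelled libraries, with overlapping groups (log2 fold change 0.06, SE 0.19, 95% interval -0.39 to 0.50, adjusted p = 0.863 in edgeR's quasi-likelihood test). Gsto1, which reduces dehydroascorbate and methylated arsenic, had 162, 118 and 109 CPM in WT and 162, 124 and 136 CPM in KO-labelled libraries (log2 fold change 0.11, SE 0.19, adjusted p = 0.704). Gstp2, one of a pair of pi class genes, had 11.7, 7.86 and 10.3 CPM in WT and 3.89, 4.67 and 7.13 CPM in KO-labelled libraries. Its groups did not overlap (log2 fold change -0.93, SE 0.27, adjusted p = 0.0749), and 42.2% of its stretches of 100 bases occur in Gstp1 or Gstp-ps. Gstp1, its more abundant neighbour, had a log2 fold change of -0.19 (95% interval -0.64 to 0.27).

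The remaining mu class genes lie in 1 cluster on chromosome 3. Gstm6 (0.47), Gstm2 (0.21) and Gstm7 (0.05) had positive log2 fold changes and Gstm5 (-0.12) and Gstm4 (-0.17) negative ones. Gstm6 was the only mu class gene whose groups did not overlap, at 2.25 to 2.79 CPM in WT and 3.42 to 3.74 CPM in KO-labelled libraries (adjusted p = 0.155 in edgeR's quasi-likelihood test). The theta class genes Gstt1 (-0.55), Gstt3 (-0.28) and Gstt2 (-0.18), Gstk1 of mitochondria and peroxisomes (-0.20), and Gstz1, which isomerises maleylacetoacetate in tyrosine breakdown (-0.17), all had negative log2 fold changes that were not called.

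**Figure D3:**
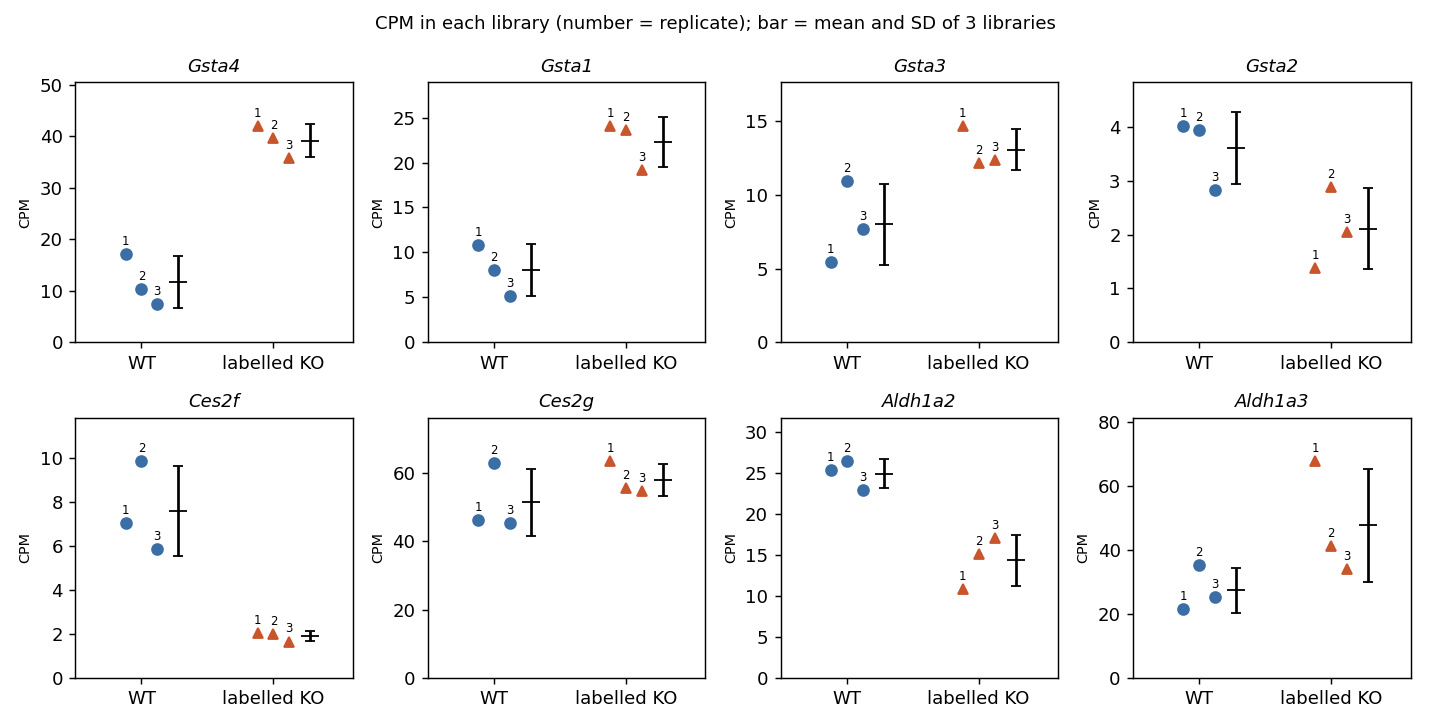
CPM in each library of 8 members, with the replicate number beside each point and the mean and SD of 3 libraries per group as bars. Gsta4 and Gsta1 lie higher and Ces2f and Aldh1a2 lower in all libraries labelled KO without overlap, whereas Gsta2, Ces2g and Aldh1a3 overlap.

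Of the carboxylesterases, Ces2f had the log2 fold change of largest size among the 46 members when all 6 libraries were used. Without WT1 it was -2.05, beside 2.14 for Gsta4 and 2.19 for Ces1h, and without WT2 -1.70, beside 1.73 for Gsta4. Ces2f had 7.04, 9.86 and 5.85 CPM in WT and 2.05, 2.01 and 1.65 CPM in KO-labelled libraries, from 130 to 232 counts against 36 to 61. The 3 libraries labelled KO lay close together (1.90 ± 0.22 CPM, SD, n = 3) and far under the lowest WT library (WT mean 7.58 ± 2.06 CPM, SD, n = 3). The level fell by 74.9% (log2 fold change -1.99, SE 0.25, 95% interval -2.57 to -1.41, adjusted p = 0.00301 in edgeR's quasi-likelihood test). It was the only member called in every one of the 8 other analyses and in all 6 fits with a library left out, where the log2 fold change ran from -2.15 to -1.70. Enzymes of the Ces2 group hydrolyse esters with large alcohol groups and, in liver and gut, acylglycerols.

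The gene next to it did not follow. Ces2g had 46.4, 62.9 and 45.4 CPM in WT and 63.6, 55.8 and 54.8 CPM in KO-labelled libraries, with overlap (log2 fold change 0.17, SE 0.16, 95% interval -0.21 to 0.55, adjusted p = 0.506 in edgeR's quasi-likelihood test). That interval does not meet the one of Ces2f, and the difference between the 2 genes was not tested. Ces4a had 53.1, 79.1 and 90.9 CPM in WT and 66.5, 44.3 and 63.1 CPM in KO-labelled libraries (log2 fold change -0.36, SE 0.23, adjusted p = 0.325). The WT values of Ces4a alone spanned from 53.1 to 90.9 CPM, wider than the distance between the groups.

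The Ces1 genes went different ways without a call. Ces1d, a triacylglycerol hydrolase of liver and fat, had 36.8, 27.97 and 33.7 CPM in WT and 18.5, 17.7 and 27.2 CPM in KO-labelled libraries (log2 fold change -0.64, SE 0.20, adjusted p = 0.0915 in edgeR's quasi-likelihood test). Its groups did not overlap, and the adipocyte list named above lay lower in the same libraries, its part in this difference not tested. Ces1h had 8.89, 2.72 and 2.61 CPM in WT and 16.5, 14.6 and 5.49 CPM in KO-labelled libraries (log2 fold change 1.35, SE 0.56, adjusted p = 0.152). WT1 and KO3 overlapped, and Ces1h had the highest coefficient of variation of all members in both groups, 75.9% in WT and 48.2% in KO-labelled libraries.

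Of the aldehyde dehydrogenases 1 was called, an enzyme that makes retinoic acid. Aldh1a2, the main retinal dehydrogenase of the embryo, had 25.3, 26.4 and 22.9 CPM in WT and 10.8, 15.1 and 17.0 CPM in KO-labelled libraries. The groups did not overlap, and the level fell by 42.4% (log2 fold change -0.80, SE 0.19, 95% interval -1.23 to -0.36, adjusted p = 0.0478 in edgeR's quasi-likelihood test). The call was close to the threshold: it was lost under 5 of 8 other analyses, with adjusted p up to 0.0757, and whenever a library other than KO3 was left out (log2 fold change -0.93 to -0.57, adjusted p up to 0.203). Aldh1a3, a retinal dehydrogenase expressed in epithelia, had 21.5, 35.2 and 25.1 CPM in WT and 67.7, 41.1 and 34.0 CPM in KO-labelled libraries. KO3 lay under WT2, and the difference did not pass (log2 fold change 0.80, SE 0.29, adjusted p = 0.114 in edgeR's quasi-likelihood test). Aldh1a1, the third gene of this kind, had a log2 fold change of -0.02 (95% interval -0.60 to 0.56), and its close relative Aldh1a7 one of -0.23. The Aldh1a genes together came to 19.3 to 26.1 CPM per kb in WT and 18.8 to 23.7 in KO-labelled libraries, with overlap.

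The folate enzymes Aldh1l1 and Aldh1l2 oxidise formyltetrahydrofolate in the cytosol and in mitochondria. Aldh1l2 had 6.42, 4.72 and 4.54 CPM in WT and 12.8, 10.1 and 6.72 CPM in KO-labelled libraries, without overlap (log2 fold change 0.91, SE 0.27, adjusted p = 0.0788 in edgeR's quasi-likelihood test). Of its stretches of 100 bases 16.0% also belong to D10Wsu102e, which overlaps it on the other strand and had a log2 fold change of 0.50 (adjusted p = 0.079). With neither a strand setting nor a counting mode stated, it is not known to which gene reads in the overlap were assigned. Aldh1l1 had a log2 fold change of 0.02.

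The most abundant aldehyde dehydrogenases did not pass the test. Aldh3a1 had 335, 304 and 286 CPM in WT and 304, 275 and 398 CPM in KO-labelled libraries, with overlap (log2 fold change 0.08, SE 0.17, 95% interval -0.31 to 0.47, adjusted p = 0.778 in edgeR's quasi-likelihood test). Aldh3b2, which acts on lipid aldehydes, had 158, 156 and 182 CPM in WT and 156, 137 and 162 CPM in KO-labelled libraries (log2 fold change -0.13, SE 0.13, 95% interval -0.43 to 0.18, adjusted p = 0.541). Aldh2, the mitochondrial enzyme of acetaldehyde, had a log2 fold change of -0.18 (95% interval -0.62 to 0.27). For these 3 genes the intervals leave room for changes of up to 0.62 in size on the log2 scale.

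The others were not called. Aldh1b1, a mitochondrial relative of Aldh2, had 6.02, 5.23 and 5.22 CPM in WT and 1.79, 3.29 and 5.03 CPM in KO-labelled libraries, without overlap but with KO3 close to WT (log2 fold change -0.70, adjusted p = 0.198 in edgeR's quasi-likelihood test). Aldh3b1 (-0.64), Aldh4a1 of proline breakdown (-0.33), Aldh6a1 of valine breakdown (-0.24) and Aldh3a2, the fatty aldehyde dehydrogenase (-0.20), had negative log2 fold changes. Aldh9a1 of carnitine synthesis (-0.17), Aldh16a1 (-0.08), Aldh5a1, which oxidises succinate semialdehyde (-0.03), and Aldh7a1 of lysine breakdown (-0.01) lay nearer to 0.

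No Ugt member was called. Ugt1a1, which conjugates bilirubin, had 6.53, 5.36 and 5.80 CPM in WT and 2.71, 2.73 and 5.21 CPM in KO-labelled libraries (log2 fold change -0.74, SE 0.28, adjusted p = 0.135 in edgeR's quasi-likelihood test). The groups did not overlap, though KO3 lay just under the lowest WT library. Ugt1a6a, an enzyme of phenols, had 11.9, 8.29 and 10.7 CPM in WT and 10.4, 9.07 and 9.51 CPM in KO-labelled libraries (log2 fold change -0.09, SE 0.18, adjusted p = 0.755). Ugt1a7c had 10.5, 8.63 and 9.44 CPM in WT and 13.3, 8.55 and 8.96 CPM in KO-labelled libraries (log2 fold change 0.10, SE 0.21, adjusted p = 0.767). The 4 Ugt1a members lie within chr1:88095062-88220002 and share their last exons, and 52.8% to 95.7% of the stretches of 100 bases of the 4 members there occur in another annotated gene, so their counts are uncertain. Ugt1a6b had a log2 fold change of -0.18. Ugt8a, which makes galactosylceramide, had 1.56, 3.57 and 1.98 CPM in WT and 2.20, 1.91 and 1.83 CPM in KO-labelled libraries (log2 fold change -0.26, SE 0.33, adjusted p = 0.622).

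**Figure D4:**
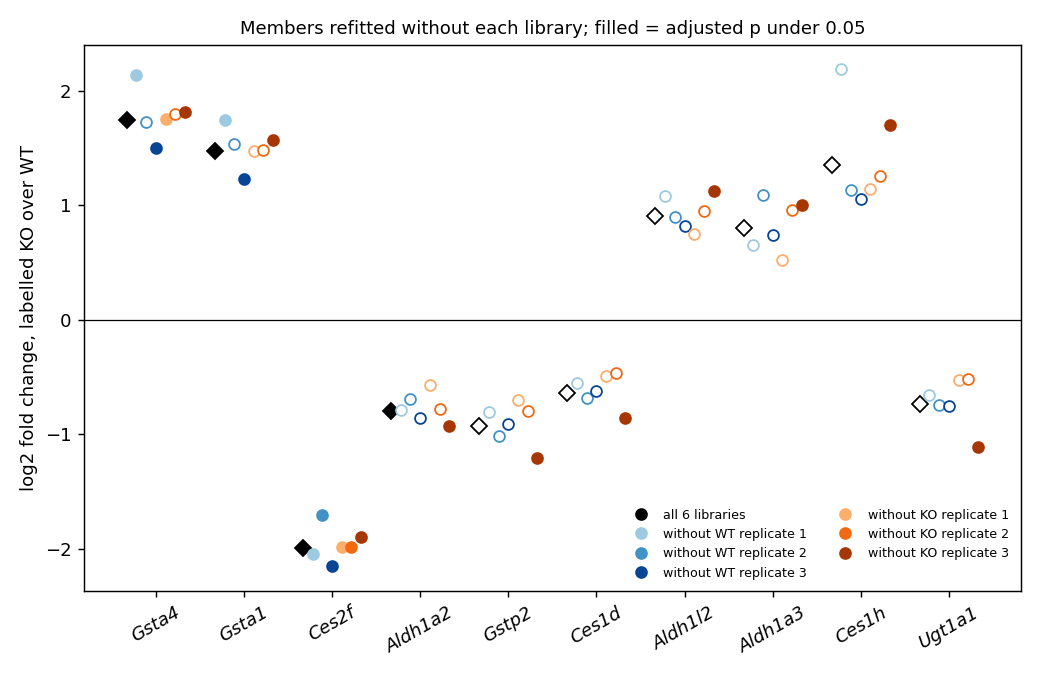
Log2 fold change of 10 members with all 6 libraries (diamonds) and with each library left out in turn (circles, coloured by the library); filled symbols passed edgeR's quasi-likelihood test at an adjusted p of 0.05. Ces2f is filled throughout, and the 6 members at the right are filled only without KO3.

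Leaving out KO3 ended no member call made with all libraries and added others. The fit without KO3 called 5 members higher (Gsta1, Gsta4, Aldh1a3, Aldh1l2 and Ces1h) and 8 lower (Ces2f, Aldh1a2, Aldh1b1, Aldh3b1, Ces1d, Gstp2, Gstt1 and Ugt1a1). Over all tested genes the same fit called 2496 higher and 2395 lower, beside 657 and 314 with all libraries. The rise in the number of member calls thus went with a rise over all genes. The same held for the lists described next: without KO3 the counts called higher and lower were 8 and 2 for the NRF2 list, 2 and 7 for glutathione synthesis and redox, 7 and 5 for ester hydrolases, and 4 and 4 for the retinoid list.

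Genes that supply these enzymes or share their regulation were taken from lists chosen from general knowledge. In the NRF2 list 6 of 28 tested genes rose and 0 fell, beside 4.38% and 2.09% of all tested genes, with a median log2 fold change of 0.12. Nfe2l2, which encodes NRF2, had 128, 109 and 112 CPM in WT and 222, 238 and 255 CPM in KO-labelled libraries, without overlap. It rose in all 3 of them (log2 fold change 1.03, SE 0.13, adjusted p = 0.00307 in edgeR's quasi-likelihood test). Nqo1, a quinone reductase and the classic NRF2 target, had 15.5, 14.1 and 14.7 CPM in WT and 32.4, 31.6 and 34.3 CPM in KO-labelled libraries (log2 fold change 1.15, SE 0.13, adjusted p = 0.00184). Nfe2l2 and Nqo1 were called in all 6 fits with a library left out.

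The other genes of the list called higher were the glutathione peroxidase Gpx2 (1.11), the aldo-keto reductase Akr1b8 (0.84), the carbonyl reductase Cbr3 (0.67) and G6pdx, which makes NADPH (0.55), with adjusted p from 0.0364 to 0.0462 in edgeR's quasi-likelihood test. All 4 lost the call without WT2, WT3, KO1 or KO2, and the list then had 2 calls. Akr1b8, Cbr3 and G6pdx lost it without WT1 as well. The largest log2 fold change of the list, 1.2, belonged to Slc7a11, the cystine transporter, which did not pass (adjusted p = 0.0925 in edgeR's quasi-likelihood test). It had 25.04, 24.9 and 24.5 CPM in WT and 93.3, 51.5 and 26.3 CPM in KO-labelled libraries, without overlap but with KO3 close to WT. Others did not pass either: Gclm, a subunit of the rate-limiting enzyme of glutathione synthesis, had a log2 fold change of 0.36 (adjusted p = 0.109), Gclc, its catalytic subunit, 0.11, Txnrd1 0.03 and Hmox1 -0.30. Keap1, which holds NRF2 in check, had a log2 fold change of -0.06. The sum of the suprabasal keratinocyte list lay higher in the same libraries, and the part of that list in the values of Nfe2l2 and its targets was not tested.

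**Figure D5:**
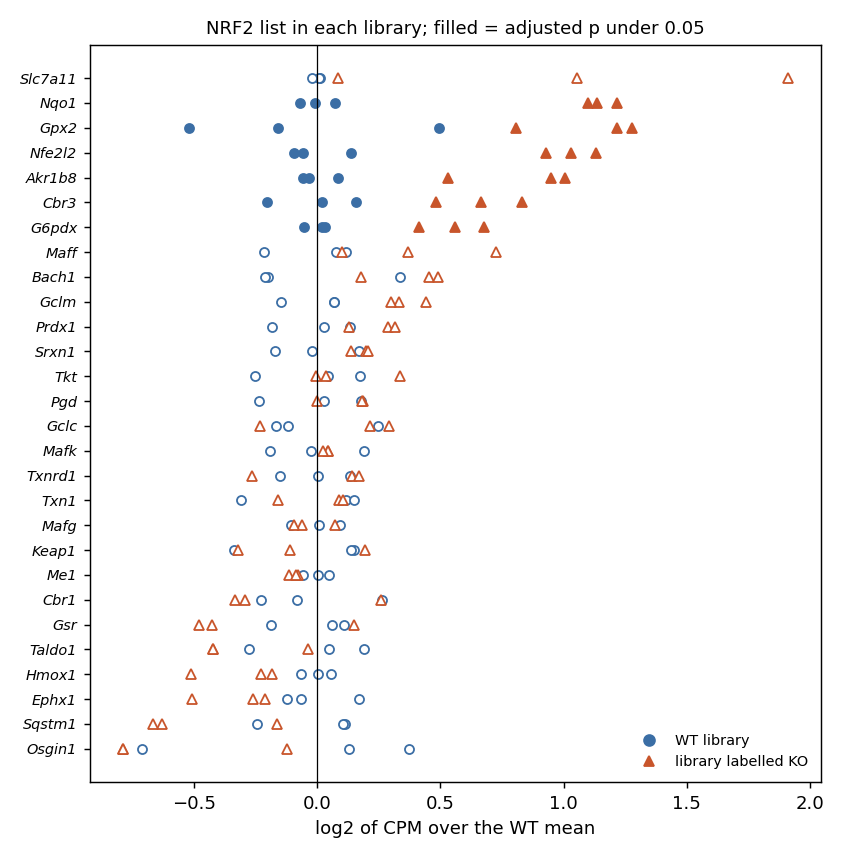
Log2 of the CPM over the WT mean for the 28 genes of the NRF2 list in each library, with circles for WT and triangles for libraries labelled KO; filled symbols mark the 6 genes with an adjusted p under 0.05. Nqo1 and Nfe2l2 are parted most evenly, whereas most of the list spreads around 0.

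In the list of glutathione synthesis and redox enzymes 1 of 17 genes rose (Gpx2) and 1 fell, beside 4.38% and 2.09% of all tested genes, with a median log2 fold change of -0.21. The one that fell was Ggt1, which splits extracellular glutathione (log2 fold change -0.74, adjusted p = 0.0364 in edgeR's quasi-likelihood test), and it was called in 1 of 6 fits with a library left out, the one without KO3. Among the membrane-bound and related glutathione transferases 2 of 10 rose and 0 fell, beside the same shares of all tested genes. These were the prostaglandin synthases Hpgds, a sigma class transferase (log2 fold change 1.17, adjusted p = 0.0414), and Ptges (0.68, adjusted p = 0.044), both called only without KO3 when a library was left out.

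The retinoid list had 2 genes higher and 1 lower of 26 tested, beside 4.38% and 2.09% of all tested genes, with a median log2 fold change of -0.15. Adh7, an alcohol dehydrogenase that can oxidise retinol, had 91.6, 165 and 122 CPM in WT and 495, 346 and 332 CPM in KO-labelled libraries (log2 fold change 1.63, SE 0.25, adjusted p = 0.0084 in edgeR's quasi-likelihood test). Fabp5, a carrier of fatty acids and retinoic acid in epidermis, rose as well (1.26, adjusted p = 0.0116). Cyp26b1, which breaks down retinoic acid, had 137, 120 and 133 CPM in WT and 64.9, 70.8 and 92.9 CPM in KO-labelled libraries. It fell (log2 fold change -0.77, SE 0.16, adjusted p = 0.0324), and leaving out any library but KO3 ended the call. Rdh10, which makes most of the retinal used by Aldh1a2 in the embryo, had a log2 fold change of -0.27 (adjusted p = 0.221). Without WT3 neither Adh7 nor Fabp5 passed, at adjusted p of 0.0512 and 0.0726.

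Of 19 other ester hydrolases tested, 3 rose and 1 fell, beside 4.38% and 2.09% of all tested genes, with a median log2 fold change of -0.06. Abhd6, a monoacylglycerol lipase, rose (1.22, adjusted p = 0.00186 in edgeR's quasi-likelihood test) and was called with each library left out. Esd, which acts on formylglutathione (1.02, adjusted p = 0.0176), and the epidermal lipase Lipn (1.67, adjusted p = 0.0236) also rose, and Faah, which hydrolyses fatty acid amides, fell (-0.60, adjusted p = 0.0288). With a library left out, Esd was called in 3 of 6 fits and Lipn and Faah in 1 of 6. In the list of sugar nucleotide and other conjugation enzymes 0 of 13 genes were called by edgeR's quasi-likelihood test, and 2 had an unadjusted p under 0.05, 1 in each direction. Ugdh, which makes the UDP-glucuronic acid that Ugt1a enzymes use, had a log2 fold change of 0.16 (adjusted p = 0.532). Of 15 genes of fatty aldehyde and alcohol metabolism 1 was called higher, Adh7 again, and 0 lower, beside 4.38% and 2.09% of all tested genes.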

How the data were processed

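The 6 samples were RNA-Seq libraries of mouse top lip, 3 WT and 3 labelled KO, grouped by the genotype in the labels. Per the labels and the paper's methods, the authors mapped paired-end reads with TopHat2 2.0.8 and Bowtie2 2.1.0 to GRCm38 and deposited whole-number counts of reads that HTSeq assigned uniquely to each gene. Counts of genes with near-identical copies may therefore be low, and the strand setting and counting mode are not given in the sources used here. All 6 columns were used and 0 were left out.

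The 15009 genes that reached 1 CPM in 3 or more libraries, with 99.8% of the counts, were scaled by TMM and tested for KO against WT with edgeR's quasi-likelihood test (edgeR 4.0.16, R 4.3.3), without covariates, two-sided. Benjamini-Hochberg adjustment took in every tested gene, and 0.05 was the threshold. CPM are on TMM-scaled library sizes. With 1 library per mouse, p-values measure the spread between 3 mice per group. The procedure was tested on simulated counts with 200 changed genes. Alternatives were edgeR's exact test, DESeq2 1.42.0, 3 other scalings, 2 other filters, a replicate block, a threshold of 0.1 and leaving out each library.

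Levels per kb used the union of exons in GENCODE release M21, which also gave gene positions. Shared sequence was counted as exonic stretches of 100 bases found in another gene, since a planned comparison of proteins was not made here. Upstream sequences came from RefSeq (GRCm38.p6). Figures used Python 3.11.15 and matplotlib 3.10.9.

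Every member is named. Full values are given for members called, for the 2 per family with the highest level per kb, and for the 2 per family with the lowest p among those not called. List genes are named when called or when rate-limiting or upstream, and a few others, with Gm10639, D10Wsu102e, Gsta2, Gstp1, Aldh1b1, Slc7a11, Txnrd1 and Hmox1 among them, were added after their values were seen. Members and lists were chosen with earlier results of these data known. Counts of the alternatives are given at the end.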

Additional observations from a re-analysis of the deposited data

How the results depend on the processing

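Precision was limited by 3 mice per group and, in members of low level such as Ces2f (36 to 61 counts in KO-labelled libraries), by the counts themselves. Ces2f was called lower, and Gsta1 and Gsta4 higher, under every alternative test, scaling and filter. Members called higher numbered 2, against 5 by edgeR's exact test and 6 by DESeq2, which added Aldh1a3, Aldh1l2 and Ces1h and, in DESeq2, Gsta3. Members called lower numbered 2, against 4 by the exact test and 4 at an adjusted p under 0.1. With DESeq2's size factors, library size alone, no filter, or at least 10 counts in every library, 1 member (Ces2f) was called lower. Over all genes 657 were called higher and 314 lower, against 1165 and 1073 by the exact test, 1511 and 898 by DESeq2, and 1248 and 1281 at an adjusted p under 0.1. Genes called lower numbered 207 with DESeq2's size factors, 204 with no filter and 204 with at least 10 counts. No scaling moved the median log2 fold change of all genes by 0.1.

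Leaving out each library gave 0 to 5 members higher and 1 to 8 lower, and 208 to 2496 genes higher and 18 to 2395 lower. The extremes were the fits without KO2 (0 and 1 members, 208 and 18 genes) and without KO3 (5 and 8 members, 2496 and 2395 genes). Genes called numbered 315 and 30 without WT1, 476 and 62 without WT2, 323 and 40 without WT3, and 292 and 28 without KO1. Among the 20 members given with full values, direction reversed in 5, none of them called, listed with the other end of their left-out range: Aldh3a1 without KO3 (-0.0856, up to 0.243), Gstm1 without WT2 (-0.0329) and KO3 (-0.105, up to 0.206), Ugt1a6a without WT1 (0.0169, down to -0.171) and KO2 (0.0067), Ugt1a7c without KO1 (-0.061, up to 0.28) and Ugt8a without WT2 (0.221, down to -0.496). The cause was not tested.

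Beyond the number, the labels give no link between same-numbered WT and KO libraries. Their deviations correlated at -0.19, 0.29 and 0.31 for replicates 1, 2 and 3. KO1 correlated best with WT2 (0.41), KO2 with WT2 (0.29) and KO3 with WT3 (0.31). With a replicate block 2 members were called higher and 1 lower, with Aldh1a2 lost (adjusted p = 0.0618 in edgeR's quasi-likelihood test), and 580 and 217 of all genes.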
